A study of Mus musculus with 20 samples.

Results

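Lgr4, Lgr5 and Lgr6, the receptors of the R-spondin family, and Axin2, Nkd1, Znrf3 and Rnf43, feedback inhibitors of canonical Wnt signalling, were followed through 7 sorted groups of mouse mammary epithelial cells. The 7 genes were taken by symbol from the array platform's annotation, and each was read by 1 probe set that is paired with that symbol alone. They are 7 of the 19937 genes with such a probe set. Per RefSeq (GRCm38.p6), Lgr6 lies on chromosome 1, Lgr4 on 2, Nkd1 on 8, Lgr5 on 10, and Axin2, Znrf3 and Rnf43 on 11, all protein-coding. Levels are given on the log2 scale, so that a difference of 1 is a 2-fold difference.

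Expression was profiled on 20 Affymetrix arrays, each from 1 sorted cell pool. In the mutants (K8-creERT2/PIK3CA H1047R, mixed FVB/CD-1 background), a tamoxifen-inducible Cre driven by the keratin 8 promoter switches on mutant PIK3CA (H1047R gives an active PI3K catalytic subunit), and cells with the transgene on are GFP positive. Controls were K8-creERT2 mice of the same background, which carry the Cre and were also given tamoxifen but have no PIK3CA transgene. All cells were collected 4 weeks after tamoxifen. Mutants gave GFP-positive basal cells (CD24 low, Sca1 negative, 3 arrays), GFP-negative basal cells (3 arrays), GFP-positive Sca1-positive luminal cells (CD24 high, 2 arrays, numbered 1 and 3) and GFP-positive Sca1-negative luminal cells (CD24 high, 3 arrays). Controls gave GFP-negative cells of the basal, Sca1-positive luminal and Sca1-negative luminal gates (3 arrays each). All gates were CD45 negative. There were 3 independent sortings, each of glands pooled from 2 to 3 estrus-synchronized mice per genotype, and the RNA of the sorted cells was amplified before labelling. Nothing in the labels ties a replicate number to a sorting. GFP-positive mutant cells are cells in which the Cre has acted, while control cells were not selected for this, and the transgene's effect cannot be told apart from that choice of cells. Keratin 8 is itself among the luminal markers listed below. GFP-positive cells in the basal gate may thus differ in origin from control basal cells, which was not tested. Below, fell and rose name the sign of a difference between sorted groups, not a change followed within cells. In a sorted pool, fewer cells that express a gene and less RNA per cell cannot be told apart.

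Lgr receptors bind R-spondins, secreted proteins that raise the response of a cell to Wnt ligands. Rnf43 and Znrf3 are membrane E3 ubiquitin ligases that remove Frizzled, the Wnt receptor, from the cell surface, and R-spondin bound to an Lgr receptor takes these ligases away. Axin2, a scaffold of the complex that degrades beta-catenin, and Nkd1, a binder of Dishevelled, act inside the cell, and all the feedback genes are known to be induced by Wnt signalling in many tissues. In the mouse mammary gland, Lgr5 is known as a marker of a subset of basal cells.

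Array medians lay between 3.66 and 3.80, and arrays of 1 group correlated with r between 0.931 and 0.971 over probe sets. Replicate 2 of mutant GFP-positive basal cells and replicate 2 of control Sca1-positive luminal cells had the narrowest value distributions (SD 1.71 and 1.72, against 1.78 to 1.88 on the other arrays). Replicate 2 of mutant GFP-negative basal cells lay nearer to the luminal arrays on the first principal component (score -38.8) than its group (-50.3 and -46.8). A list of 10 basal markers averaged 9.20 in GFP-positive mutant basal cells, 9.49 in GFP-negative mutant basal cells and 9.60 in control basal cells, against 4.47 to 5.08 in the 4 luminal groups. All 10 were higher in control basal cells than in either control luminal gate. In GFP-positive mutant against control basal cells, 2 of those 10 markers fell (Myh11 and Oxtr), and 2 of 8 luminal markers rose (Krt18 by 1.01 and Krt19 by 1.48). A list of 6 luminal progenitor markers lay between 6.98 and 7.69 on the GFP-positive basal arrays and between 6.14 and 6.38 on the control basal arrays, with 2 of the 6 called higher (Elf5 and Cd14). The 8 luminal markers lay between 7.53 and 8.61, against 7.26 and 8.10. A list of 6 fibroblast markers lay between 4.82 and 5.03, against 4.17 and 4.35, with 2 of the 6 called higher (Dcn and Col1a2). Dcn averaged 10.58 in GFP-positive mutant basal cells and 10.48 in control Sca1-negative luminal cells. Of 5 hormone-sensing luminal markers Tbx3 fell (log2 difference -2.45), of 6 endothelial markers Cdh5 fell (-0.99), and of 5 pericyte markers Cspg4 rose (0.72). Against GFP-negative mutant basal cells, Krt18, Elf5, Col1a2 and Dcn rose (log2 differences of 1.06, 1.94, 0.92 and 2.54) and Myh11 and Tbx3 fell (-0.66 and -2.06). No marker of any list was called between GFP-negative mutant and control basal cells. The part of these marker differences in the results on GFP-positive basal cells below was not tested. Over the 6 measured markers the immune list averaged 3.80 to 3.98 in every group, and Ptprc, which encodes CD45, 3.36 to 3.66.

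Across the 7 groups, 6 of the 7 genes differed by the moderated F test of limma (adjusted p 3.81e-10 for Lgr5, 3.28e-07 for Lgr6, 3.28e-06 for Lgr4, 0.000361 for Axin2, 0.00185 for Rnf43 and 0.00361 for Nkd1). Of all genes, 20.7% passed the same test. Znrf3 did not pass it (adjusted p = 0.144). The receptors had the wider spans, with 5.26 between the highest and lowest group mean of Lgr5, 3.57 for Lgr4 and 3.33 for Lgr6. The feedback genes spanned 1.47 (Nkd1), 1.16 (Rnf43), 1.10 (Axin2) and 0.91 (Znrf3). Spans of genes with levels near the array medians (3.66 to 3.80) in some groups, such as Lgr5, Axin2 and Znrf3, may be understated. Levels of different probe sets are not comparable, and the level of each gene is compared below only with its own level in other groups. Spans and differences are set side by side between genes as a description.

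**Figure D1:**
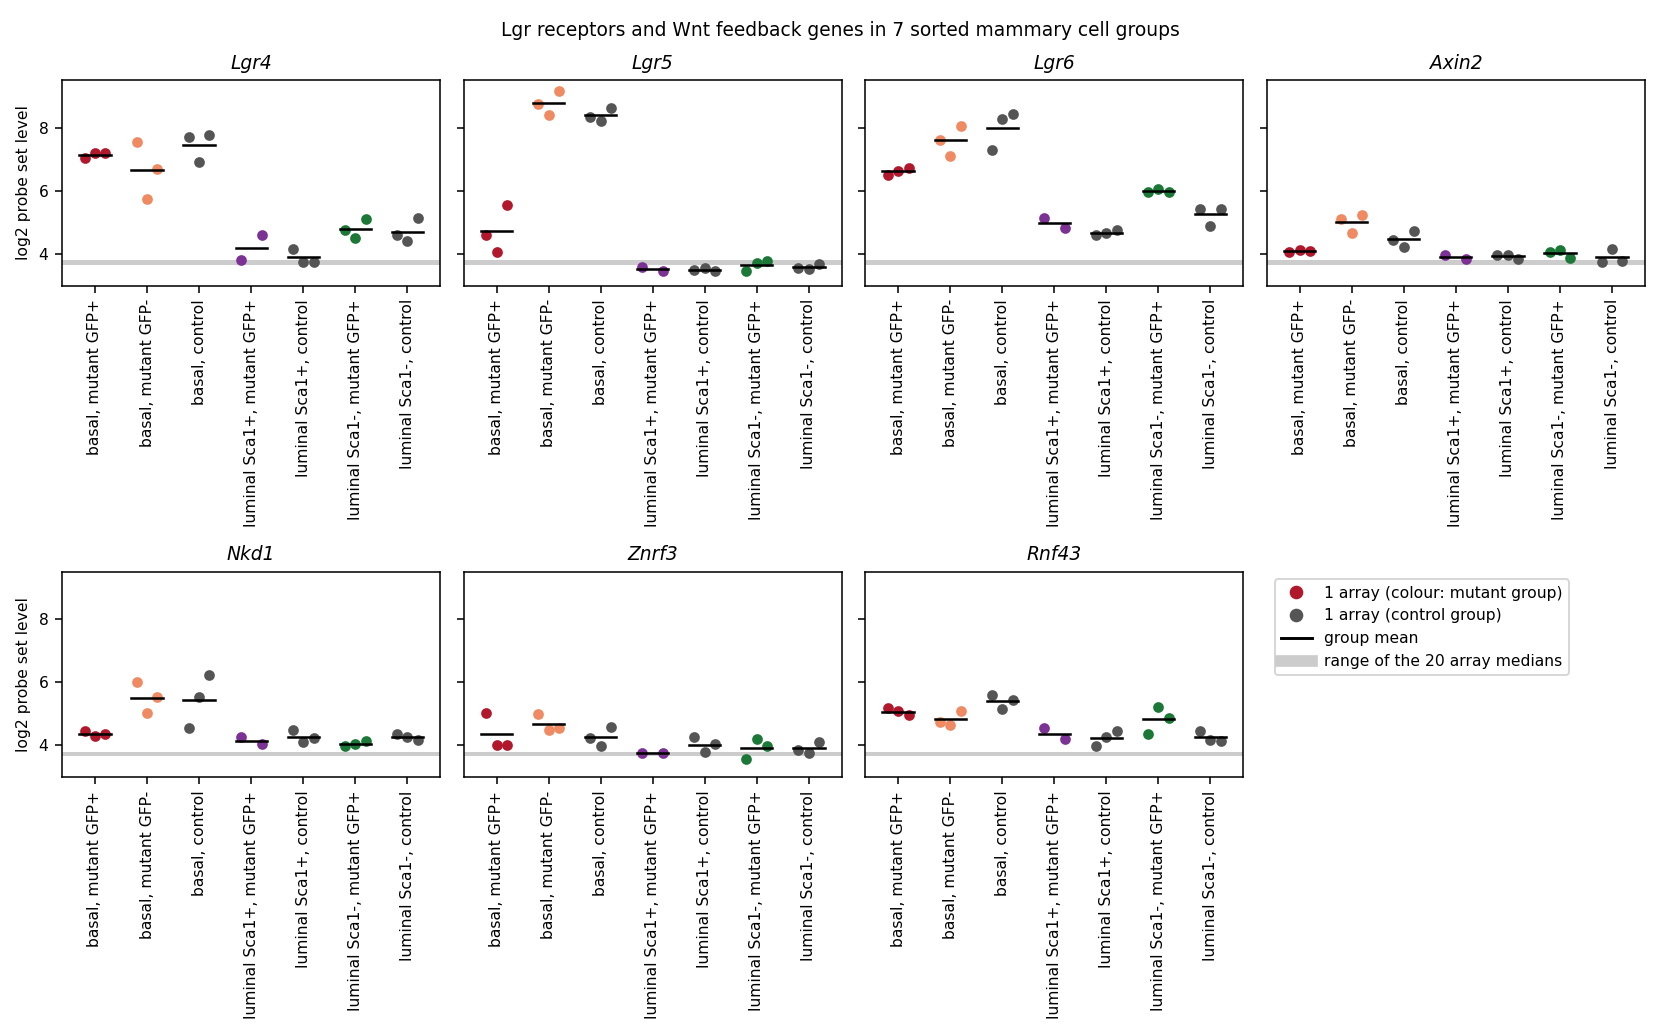
Log2 probe set level (vertical axis) of the 7 genes in the 7 sorted groups (horizontal axis), with 1 point per array, group means as black lines and the range of the 20 array medians in grey. Lgr5 lies between 8.22 and 9.16 on the 6 arrays of GFP-negative mutant basal and control basal cells, between 4.05 and 5.55 on the GFP-positive mutant basal arrays and between 3.46 and 3.78 on the 11 luminal arrays.

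Lgr5 was lower in the transgene-expressing than in the other basal cells, by more than any other of these genes. Its level was 4.60, 4.05 and 5.55 in GFP-positive mutant basal cells, against 8.74, 8.40 and 9.16 in GFP-negative mutant basal cells and 8.35, 8.22 and 8.61 in control basal cells. All 3 GFP-positive arrays were thus low, with no overlap with the 6 GFP-negative basal arrays, which overlapped among themselves. Against control basal cells Lgr5 was 12.6-fold lower (log2 difference -3.66, SE 0.27, adjusted p = 5.69e-07), the 4th lowest log2 difference of all 19937 genes. Against the GFP-negative basal cells of the mutants it was 16.4-fold lower (log2 difference -4.03, SE 0.27, adjusted p = 2.10e-07). Both comparisons share the GFP-positive arrays. The call held under all 15 other settings in each, with log2 differences of -4.07 to -3.32 and of -4.44 to -3.69. The ends of those ranges come from leaving out a GFP-positive array, replicate 3 (-4.07 and -4.44) or the narrow-spread replicate 2 (-3.32 and -3.69).

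In the luminal gates Lgr5 was low with or without the transgene. Its level was 3.48, 3.72 and 3.78 in mutant Sca1-negative luminal cells, against 3.55, 3.51 and 3.67 in control ones. It was 3.58 and 3.48 in mutant Sca1-positive luminal cells, against 3.51, 3.56 and 3.46 in control ones. These 4 groups overlapped throughout. Neither log2 difference passed the test (0.08 with a 95% interval of -0.49 to 0.65 for Sca1-negative cells, and 0.02 with -0.62 to 0.66 for Sca1-positive cells). On 9 of the 11 luminal arrays Lgr5 lay below the array's own median, and the values carry no detection call. A luminal level this low may be background, so a fall in luminal cells could not have been seen, and folds against them are given as lower bounds with no luminal value taken below its array's median. In controls Lgr5 was at least 25.05-fold higher in the basal than in the Sca1-negative luminal gate (log2 difference as measured 4.82, adjusted p = 6.74e-09) and at least 24.9-fold higher than in the Sca1-positive luminal gate (4.89, adjusted p = 4.02e-09). In the mutants' GFP-positive cells it was at least 2.01-fold (log2 difference as measured 1.08, adjusted p = 0.0156) and at least 2.08-fold higher in basal cells (1.21, adjusted p = 0.0143). These smaller gaps did not pass in a fit of only the arrays compared (adjusted p = 0.149 and 0.198, the highest over the other settings, whose lowest were 0.00115 and 0.00101). The gap to Sca1-negative cells was also lost without their replicate 1, and that to Sca1-positive cells without either of their arrays.

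Lgr6 was also lower in the transgene-expressing basal cells, by less. Its level was 6.51, 6.63 and 6.74 in GFP-positive mutant basal cells, against 7.62, 7.12 and 8.06 in GFP-negative mutant basal cells and 7.30, 8.29 and 8.42 in control basal cells. The GFP-positive arrays lay close together, below all 6 others. Against control basal cells Lgr6 was 2.60-fold lower (log2 difference -1.38, SE 0.26, adjusted p = 0.00551). That call was lost with only the arrays compared (adjusted p = 0.113), the one such loss among 15 settings, over which the adjusted p ran from 0.000284 to 0.113. Against GFP-negative mutant basal cells the log2 difference was -0.97 (SE 0.26), with an adjusted p of 0.0552. Without replicate 2 of the GFP-negative cells it was -1.21 (adjusted p = 0.0202), and over all settings the adjusted p ran from 0.0202 to 0.214.

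Over the lineages Lgr6 took intermediate levels. Its mean was 6.63 ± 0.11 in GFP-positive mutant basal cells, 7.60 ± 0.47 in GFP-negative mutant basal cells and 8.002 ± 0.61 in control basal cells (SD, n = 3 each). The luminal means were 5.99 ± 0.06 in mutant and 5.25 ± 0.32 in control Sca1-negative cells (n = 3 each), and 4.98 ± 0.23 in mutant (n = 2) and 4.67 ± 0.08 in control Sca1-positive cells (n = 3). The order of the means was control, GFP-negative mutant and GFP-positive mutant basal cells, then mutant and control Sca1-negative and mutant and control Sca1-positive luminal cells. Of the neighbours in it, GFP-negative mutant and control basal cells overlapped, as did mutant Sca1-positive and control Sca1-negative luminal cells, and the others were separate. In controls Lgr6 was 6.73-fold higher in the basal than in the Sca1-negative luminal gate (adjusted p = 2.48e-06) and 10.05-fold higher than in Sca1-positive luminal cells (adjusted p = 1.99e-07).

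Lgr4 separated basal from luminal cells in mutants and controls alike. Its level was 7.04, 7.18 and 7.19 in GFP-positive mutant basal cells, against 7.54, 5.76 and 6.68 in GFP-negative mutant basal cells and 7.72, 6.90 and 7.77 in control basal cells. The GFP-positive values lie inside the range of the other basal arrays, and GFP-negative replicate 2 was the lowest of the 9. Luminal values ran from 3.75 to 5.14 over 11 arrays, all below the basal ones. The luminal means were 4.20 ± 0.55 in mutant (n = 2) and 3.89 ± 0.24 in control Sca1-positive cells, and 4.79 ± 0.31 in mutant and 4.71 ± 0.38 in control Sca1-negative cells (n = 3 each), with overlap between neighbours in the order of these means. In controls Lgr4 was 6.74-fold higher in the basal than in the Sca1-negative luminal gate (adjusted p = 7.83e-05) and 11.9-fold higher than in Sca1-positive luminal cells (adjusted p = 3.67e-06). In GFP-positive mutant cells it was 5.08-fold (adjusted p = 0.000410) and 7.67-fold higher in basal cells (adjusted p = 0.000117), calls that held under every other setting run. GFP-positive mutant and control basal cells differed by -0.33 (95% interval -1.10 to 0.44, adjusted p = 0.745).

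Shown here are promoters of members called lower in GFP-positive basal cells against control or GFP-negative mutant basal cells, as far as the RefSeq table (GRCm38.p6) gave them. Lgr6 was called only against control cells, and Axin2 and Nkd1 only against GFP-negative mutant cells. For each, the GFP-positive arrays lay below all other basal arrays. Each line is 300 bases on the gene's strand, 5′ to 3′, with the 50 bases from the transcription start onward in capitals. Lgr6 is at chr1:135105227-135105526 (minus strand), Axin2 at chr11:108920099-108920398 (plus strand) and Nkd1 at chr8:88527383-88527682 (plus strand).
Lgr6: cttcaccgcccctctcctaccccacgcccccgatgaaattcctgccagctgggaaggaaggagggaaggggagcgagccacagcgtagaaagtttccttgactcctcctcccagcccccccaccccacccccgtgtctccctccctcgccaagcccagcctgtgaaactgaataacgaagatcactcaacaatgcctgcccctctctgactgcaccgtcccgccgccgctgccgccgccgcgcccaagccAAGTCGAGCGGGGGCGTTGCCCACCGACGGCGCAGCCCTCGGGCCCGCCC
Axin2: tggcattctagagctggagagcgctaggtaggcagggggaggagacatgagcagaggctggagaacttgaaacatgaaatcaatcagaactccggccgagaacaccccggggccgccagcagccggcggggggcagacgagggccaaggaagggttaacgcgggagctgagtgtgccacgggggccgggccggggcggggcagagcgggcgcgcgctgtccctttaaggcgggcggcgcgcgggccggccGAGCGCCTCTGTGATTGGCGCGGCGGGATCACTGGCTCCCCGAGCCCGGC
Nkd1: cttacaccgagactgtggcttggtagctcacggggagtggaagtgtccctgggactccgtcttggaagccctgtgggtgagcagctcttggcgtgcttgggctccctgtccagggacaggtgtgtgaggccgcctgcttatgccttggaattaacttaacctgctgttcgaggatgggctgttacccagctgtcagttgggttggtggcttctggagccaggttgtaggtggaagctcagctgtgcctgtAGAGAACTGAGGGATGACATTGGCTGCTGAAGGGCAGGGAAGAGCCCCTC
The Axin2 window was 70.0% G and C with 31 CpG steps and the Lgr6 window 67.7% with 24, against 58.3% with 6 in the Nkd1 window. The medians over all 32851 promoters of the table were 52.7% and 7. The core that TCF and LEF factors recognise, searched as CTTTGAA or CTTTGAT on both strands, was in 0 of the 6 windows listed for Lgr4, Lgr6, Axin2, Nkd1 and Rnf43, and in 8.65% of all promoters. Only these letters and this window were searched.

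Axin2 was low in GFP-positive mutant basal cells and higher in their GFP-negative neighbours. Its level was 4.07, 4.12 and 4.10 in GFP-positive mutant basal cells, against 5.12, 4.65 and 5.23 in GFP-negative mutant basal cells and 4.45, 4.22 and 4.73 in control basal cells. The GFP-positive arrays were below all the others, while GFP-negative mutant and control basal arrays overlapped. Axin2 fell 1.87-fold in GFP-positive against GFP-negative mutant basal cells (log2 difference -0.91, SE 0.15, adjusted p = 0.00289). The call was lost only in a fit of those 6 arrays alone (adjusted p = 0.108, the highest over 15 settings, whose lowest was 0.000482). Against control basal cells the difference was -0.37 (SE 0.15, adjusted p = 0.238). The luminal arrays ran from 3.75 to 4.17, with 1 of 11 below the array's own median. Levels this near the array medians (3.66 to 3.80) may be background, so that falls to them may be understated. In the order of group means, the 1 gap between neighbours lay between control basal and GFP-positive mutant basal cells, and the GFP-positive arrays overlapped both Sca1-negative luminal groups but lay above both Sca1-positive ones.

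Nkd1 had a like order in basal cells with more spread among controls. Its level was 4.44, 4.29 and 4.35 in GFP-positive mutant basal cells, against 5.99, 5.01 and 5.54 in GFP-negative mutant basal cells and 4.56, 5.52 and 6.23 in control basal cells. The GFP-positive arrays were again the 3 lowest, and control replicate 1 came close to them. Nkd1 fell 2.23-fold in GFP-positive against GFP-negative mutant basal cells (log2 difference -1.16, SE 0.30, adjusted p = 0.0469). This call was lost under 10 of 15 other settings, over which the adjusted p ran from 0.0230 to 0.180, among them leaving out any of the GFP-positive arrays or GFP-negative replicate 1 or 3. Against control basal cells the difference was -1.08 (95% interval -1.71 to -0.44), with an adjusted p of 0.0564. It was -1.51 without control replicate 1 (adjusted p = 0.00148, the lowest of a range that reached 0.336). Luminal values ran from 3.98 to 4.48 over 11 arrays, and the 1 gap between neighbours in the order of means was again between control basal and GFP-positive mutant basal cells.

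Rnf43 differed less between the basal groups. Its level was 5.17, 5.08 and 4.95 in GFP-positive mutant basal cells, against 4.74, 4.64 and 5.09 in GFP-negative mutant basal cells and 5.58, 5.15 and 5.44 in control basal cells. Here the GFP-negative mutant cells were lowest, with no overlap with the controls, and the GFP-positive arrays overlapped both groups. None of the 3 basal differences passed the test, with -0.32 for GFP-positive against control (adjusted p = 0.465), 0.24 for GFP-positive against GFP-negative (0.706) and -0.57 for GFP-negative against control cells (0.331). In the order of means the 1 gap was between GFP-negative mutant basal and mutant Sca1-positive luminal cells, since mutant Sca1-negative luminal cells (4.83 ± 0.43, n = 3) lay among the basal groups.

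Znrf3, the partner ligase of Rnf43, showed no difference that passed a test. Its level was 5.04, 4.01 and 4.02 in GFP-positive mutant basal cells, against 4.997, 4.48 and 4.55 in GFP-negative mutant basal cells and 4.23, 4.00 and 4.59 in control basal cells. One GFP-positive array, replicate 1, was far above the other 2, and all 3 groups overlapped. The GFP-positive against control difference was 0.08 (95% interval -0.45 to 0.62, adjusted p = 0.925). The 11 luminal arrays lay between 3.57 and 4.26, and every pair of neighbours in the order of the 7 means overlapped. On 2 of the 11 Znrf3 lay below the array's own median. Levels this near the array medians (3.66 to 3.80) may be background, so that differences of Znrf3 could have been missed.

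Counted over the 7 genes, 2 fell and 0 rose in GFP-positive mutant against control basal cells (Lgr5 and Lgr6), where 4.23% of all genes were called and 1.91% were called lower. The arrays of 4 of the 7 did not overlap, against 18.6% of all genes. The median difference of the 7 was -0.37, against -0.03 over all genes. In GFP-positive against GFP-negative mutant basal cells 3 fell (Lgr5, Axin2 and Nkd1), where 3.25% of all genes were called and 1.20% were called lower, and the median was -0.91 against -0.01. Again 4 of the 7 did not overlap, against 15.0% of all genes. The 7 were chosen with earlier results of these data known, so that these counts and medians beside all genes are a description.

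**Figure D2:**
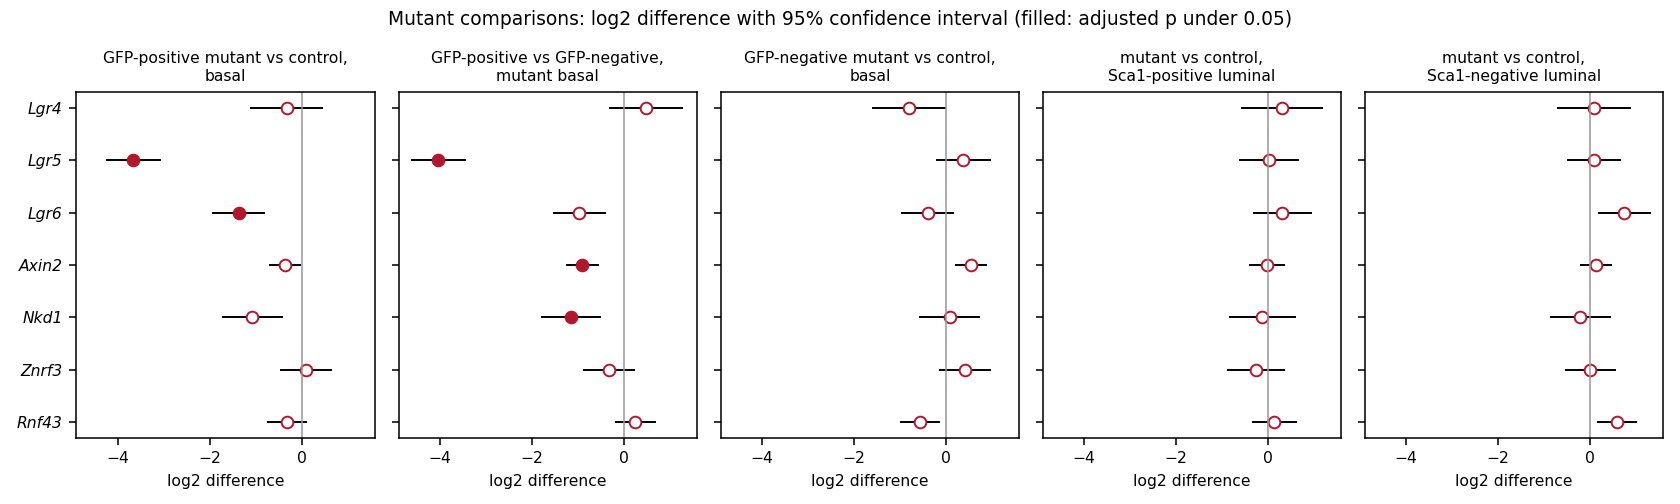
Log2 difference (horizontal axis) of the 7 genes in 5 comparisons with mutant cells, with 95% confidence intervals, filled where the adjusted p is under 0.05. The filled points are Lgr5 (-3.66) and Lgr6 (-1.38) in GFP-positive mutant against control basal cells, and Lgr5 (-4.03), Nkd1 (-1.16) and Axin2 (-0.91) in GFP-positive against GFP-negative mutant basal cells.

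The GFP-negative basal cells of the mutants, which the GFP sort places outside the transgene-expressing cells, were set against control basal cells. None of the 7 genes passed the test by limma (3 had an unadjusted p under 0.05), where 0.161% of all genes were called. Those 3 were Axin2 (0.53, 95% interval 0.21 to 0.86, adjusted p = 0.228), Rnf43 (-0.57, -0.99 to -0.15) and Lgr4 (-0.81, -1.58 to -0.03, adjusted p = 0.492). Lgr5 differed by 0.37 (-0.20 to 0.94) and Lgr6 by -0.40 (-0.96 to 0.15). Nkd1 and Znrf3 differed by 0.08 and 0.41. The Lgr4 difference was -0.35 without GFP-negative replicate 2. Rnf43 alone of the 7 had arrays that did not overlap between the groups, against 13.7% of all genes. The Axin2 difference was 0.71 without GFP-negative replicate 2 (adjusted p = 0.0817, the lowest over the settings, whose highest was 0.724).

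In Sca1-negative luminal cells none of the 7 genes passed the test between mutant and control (2 had an unadjusted p under 0.05), where 1.90% of all genes were called. Lgr6 was 5.96, 6.05 and 5.95 in mutant cells, against 5.44, 4.89 and 5.43 in control cells, with no overlap (log2 difference 0.74, SE 0.26, adjusted p = 0.236). This is opposite in sign to its difference in basal cells. Rnf43 was 4.37, 5.23 and 4.88 in mutant cells, against 4.45, 4.16 and 4.15 in control cells, overlapping through mutant replicate 1 (log2 difference 0.58, adjusted p = 0.213). Without that array it was 0.81 and passed (adjusted p = 0.0467, the lowest over the settings, whose highest was 0.610). The feedback genes Axin2, Nkd1 and Znrf3 differed by 0.12, -0.21 and 0.00, and Lgr4 by 0.08. Arrays did not overlap for 2 of the 7 (Lgr6 and Nkd1), against 22.6% of all genes. In the same comparison 5 of 5 hormone-sensing luminal markers fell in mutant cells. Of 6 luminal progenitor markers only Elf5 was called (4.70-fold higher), and of 6 fibroblast markers only Dcn (7.09-fold lower). The part of these markers in the values was not tested.

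In Sca1-positive luminal cells, with 2 mutant arrays, none of the 7 passed the test and none had an unadjusted p under 0.05, where 0.226% of all genes were called. Lgr6 was 5.14 and 4.82 in mutant cells, against 4.60, 4.66 and 4.75 in control cells (log2 difference 0.31, 95% interval -0.31 to 0.92). Both mutant arrays were above the 3 controls. Lgr4 differed by 0.30, Znrf3 by -0.26, Rnf43 by 0.13, Nkd1 by -0.13 and Axin2 by -0.02. Arrays did not overlap for 2 of the 7 (Lgr6 and Znrf3), against 28.6% of all genes. The 95% interval of Lgr4 reached from -0.56 to 1.17. Of 10 basal markers only Krt5 was called, 4.42-fold higher in the mutant cells (adjusted p = 0.00223). Of 6 luminal progenitor markers only Lcn2 was called, 3.54-fold higher (adjusted p = 0.000857). The part of Krt5 and Lcn2 in these values was not tested.

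In control cells 6 of the 7 genes were higher in basal than in Sca1-negative luminal cells, and the same 6 were higher than in Sca1-positive luminal cells, the exception being Znrf3. Of all genes 9.89% and 12.3% were called in these comparisons, and 4.67% and 5.94% were called higher. The arrays of those 6 did not overlap in either comparison, against 25.9% and 25.1% of all genes. Both comparisons share the control basal arrays. Rnf43 was 2.20-fold (adjusted p = 0.000988) and 2.23-fold higher (0.000699), and Nkd1 was 2.26-fold (0.0179) and 2.23-fold higher (0.0170). Axin2 was 1.48-fold (0.0276) and 1.45-fold higher (0.0305). The Axin2 and Nkd1 calls were lost under 5 to 7 of the 15 other settings, among them leaving out control basal replicate 3, after which the log2 differences were 0.43 and 0.41 for Axin2 and 0.78 and 0.76 for Nkd1. Leaving out control basal replicate 1 ended both Axin2 calls, and leaving out control basal replicate 2 both Nkd1 calls. Znrf3 differed by 0.36 and 0.24 (adjusted p = 0.514 and 0.664).

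Between the control luminal gates none of the 7 passed (2 had an unadjusted p under 0.05), where 0.762% of all genes were called. Lgr4 was 4.17, 3.76 and 3.75 in Sca1-positive cells, against 4.60, 4.40 and 5.14 in Sca1-negative cells (-0.82, adjusted p = 0.581). Lgr6 likewise had no overlap between these gates (-0.58, adjusted p = 0.591), which held for 13.3% of all genes. Lgr5 was low in both.

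In the GFP-positive cells of the mutants, the receptors were the members called between basal and luminal cells. Lgr4 and Lgr5 were higher in basal than in Sca1-negative luminal cells, where 9.59% of all genes were called and 4.43% were called higher. Lgr4, Lgr5 and Lgr6 were higher than in Sca1-positive luminal cells, where 10.7% were called and 4.49% were called higher. Arrays did not overlap for 4 and 7 of the 7 genes, against 25.2% and 37.2% of all genes. Lgr6 was 1.56-fold (adjusted p = 0.170, with 0.0115 to 0.326 over the other settings) and 3.13-fold higher (adjusted p = 0.00111). Rnf43 differed by 0.24 (adjusted p = 0.611) and 0.70 (adjusted p = 0.0559), Nkd1 by 0.31 and 0.21, and Axin2 by 0.07 and 0.19, with none called.

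Whether the mutant difference itself differed between lineages was tested as an interaction, the GFP-positive mutant minus control difference in basal cells less the same difference in luminal cells. Set against Sca1-negative luminal cells, it was -3.74 for Lgr5 (SE 0.38, adjusted p = 6.27e-05) and -2.11 for Lgr6 (SE 0.37, adjusted p = 0.00638), where 1.55% of all genes were called and 0.617% were called lower. For Lgr5 the luminal level lay at or near the array median in both genotypes, so its interaction restates the basal difference and does not show that luminal cells differ in their response. For Lgr6, which lay above the array median on all luminal arrays, this joins a difference of -1.38 in basal cells to one of 0.74 in luminal cells. The luminal difference was not called on its own (adjusted p = 0.236 by limma). Each difference sets GFP-positive cells against unselected control cells, so the interaction cannot tell genotype apart from the origin of the sorted cells. Set against Sca1-positive luminal cells, it was -3.68 for Lgr5 (SE 0.40, adjusted p = 0.000154), where 1.09% were called and 0.512% were called lower. For Lgr6 it was -1.68 there, with an adjusted p of 0.0520 that ran from 0.00362 to 0.213 over the other settings. Axin2 had interactions of -0.49 and -0.35, Nkd1 of -0.86 and -0.95, Rnf43 of -0.90 and -0.46, Lgr4 of -0.41 and -0.63 and Znrf3 of 0.08 and 0.35, none of them called. The Rnf43 interaction with Sca1-negative cells was -1.13 without mutant Sca1-negative replicate 1 (adjusted p = 0.0400, with up to 0.345 over the other settings). Between the luminal gates 0 of the 7 interactions were called by limma (0 had an unadjusted p under 0.05), where 0.140% of all genes were.

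Over the 9 basal arrays Lgr5, Lgr6, Axin2 and Nkd1 had Pearson r of 0.81 for Lgr5 with Lgr6, 0.79 with Axin2 and 0.77 with Nkd1, of 0.88 for Lgr6 with Nkd1, of 0.73 for Axin2 with Nkd1 and of 0.59 for Lgr6 with Axin2. Lgr4 varied apart from Lgr5 (r = -0.05) and more with Rnf43 (r = 0.65). Rnf43 did not follow Lgr5 (r = 0.02). These arrays hold 3 groups, so that the values include the group differences. Over the 11 luminal arrays r was -0.03 for Lgr5 with Axin2 and -0.22 with Nkd1, 0.64 for Lgr5 with Lgr6 and 0.66 with Rnf43, and 0.72 for Lgr6 with Rnf43. All are descriptions, over arrays that may share pools of mice.

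The genes whose levels followed Lgr5 most closely over the 20 arrays were Tshz2 (r = 0.97), Lmod1 (r = 0.97), Pappa (r = 0.97), Cacna2d1 (r = 0.97) and Scn7a (r = 0.97). Tshz2 encodes a zinc finger transcription factor, Lmod1 an actin regulator of smooth muscle, Pappa a protease that cleaves IGF-binding proteins, Cacna2d1 a calcium channel subunit and Scn7a a sodium channel protein. Scn7a was 5.75, 6.07 and 4.25 in GFP-positive mutant basal cells, against 9.71, 8.75 and 9.61 in GFP-negative mutant basal cells and 10.03, 9.53 and 9.55 in control basal cells. Its GFP-positive arrays were low without overlap, as for Lgr5. Against control basal cells the log2 difference was -4.34 for Scn7a, -2.85 for Tshz2 and -1.85 for Lmod1. Cacna2d1 (mean 3.20) and Pappa (mean 3.43) lay below the array's median on all 3 GFP-positive basal arrays, so that their falls are lower bounds. With no value taken below that median, Cacna2d1 was at least 5.99-fold and Pappa at least 4.54-fold lower. Likeness over these arrays uses the same values, so that these differences restate it.

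**Figure D3:**
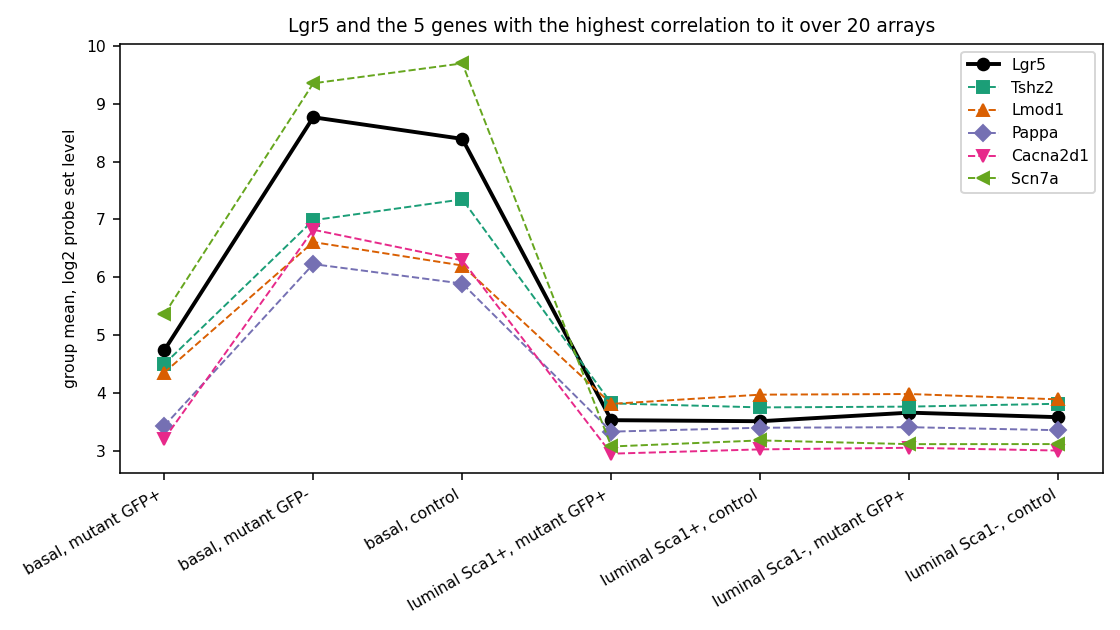
Group means on the log2 scale (vertical axis) of Lgr5 and of the 5 genes most correlated with it, over the 7 groups (horizontal axis). Scn7a has a mean of 5.36 in GFP-positive mutant basal cells, 9.35 in GFP-negative mutant basal cells and 9.70 in control basal cells, beside 4.73, 8.77 and 8.39 for Lgr5 in the same groups.

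The other members had different neighbours. Lgr4 was followed by Serpinh1 (r = 0.96), Nedd4, Ext1, Rflnb and Tpm1. Of these, 0 of 5 were called between mutant and control cells, basal or luminal, or between the GFP fractions of mutant basal cells. From 0.161% to 4.23% of all genes were called in those comparisons. Lgr4 was not called in them either, so that the likeness used to pick these genes restates this. Tests of basal against luminal cells are not given here for these genes. Lgr6 was followed by Smtn (r = 0.96), Rbpms, Ltbp2, Plpp3 and Alpl, with Smtn encoding a smooth muscle cytoskeletal protein and Ltbp2 a matrix protein. Of these 5, 4 fell in GFP-positive mutant against control basal cells and 0 rose, where 1.91% of all genes were called lower. They were picked by likeness to Lgr6 over the same arrays, so that this restates its own fall. In mutant against control Sca1-negative luminal cells 1 of the 5, Plpp3, was called higher (adjusted p = 0.0238), where 1.90% of all genes were called in either direction. It too was picked by likeness to Lgr6, which was not called there. Axin2 was followed by Cmah (r = 0.92), Krt42, Vsnl1, Dchs1 and Cacna2d1, the last of which it shares with Lgr5. Dchs1, a protocadherin, was 2.11-fold higher in GFP-negative mutant than in control basal cells (adjusted p = 0.0213), where 0.161% of all genes were called. Axin2 differed by 0.53 there and was not called. Dchs1 was picked by likeness to Axin2 over the same arrays, so its difference is no separate evidence on Axin2. Nkd1 was followed by Itga9 (r = 0.96), Adamts4, Scube3, Cpxm2 and Drp2, and Rnf43 less closely by Dcun1d4 (r = 0.91), Igfbp7, Plekhf1, Tceal1 and Man2a1. Znrf3 spanned too little for such a list.

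A further 49 genes of the pathway were read as 4 lists, of which 47 had a usable probe set. In GFP-positive mutant against control basal cells 2 rose and 3 fell, where 2.32% of all genes were called higher and 1.91% lower, with a median difference of -0.14 against -0.03 over all genes. Of these, Wif1, a secreted Wnt inhibitor, was 4.02, 4.70 and 4.90 in GFP-positive mutant basal cells, against 6.20, 4.56 and 6.35 in GFP-negative mutant basal cells and 6.81, 6.89 and 6.65 in control basal cells. GFP-negative replicate 2 lay among the GFP-positive arrays. Wif1 fell 4.73-fold against control cells (log2 difference -2.24, adjusted p = 0.000728). Apcdd1, a membrane Wnt inhibitor, fell by 1.09 (adjusted p = 0.00986) and the transcription factor gene Myc fell by 0.62 (adjusted p = 0.0113). The Wif1 call held under all other settings, the Apcdd1 call was lost with only the arrays compared (adjusted p = 0.0735, down to 0.00698 over the settings), and the Myc call was also lost without control replicate 1 or GFP-positive replicate 2 (adjusted p 0.00852 to 0.144).

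The genes that rose in the same comparison were Cd44, a hyaluronan receptor, and Tcf7l2, a nuclear partner of beta-catenin. Cd44 was 9.38, 9.35 and 9.22 in GFP-positive mutant basal cells, against 8.27, 8.65 and 8.59 in GFP-negative mutant basal cells and 7.74, 8.22 and 7.99 in control basal cells. The 3 groups did not overlap. Cd44 was 2.52-fold higher than in control cells (adjusted p = 0.000488). Tcf7l2 rose 1.83-fold against control cells (adjusted p = 0.0196), a call lost without control replicates 1 or 3 or GFP-positive replicates 1 or 2 (adjusted p up to 0.0697 and down to 0.0118 over the settings). Of the 15 measured Wnt-induced genes outside the 7, 1 rose and 3 fell, and 11 did not pass.

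In GFP-positive mutant against control basal cells, where 4.23% of all genes were called, 0 of 6 ligands and co-receptors (Rspo1 to Rspo4, Lrp5 and Lrp6), 0 of 14 cytoplasmic transducers and 1 of 12 nuclear effectors (Tcf7l2) passed, a share near that of all genes. In GFP-positive against GFP-negative mutant basal cells 2 of 47 rose and 0 fell, where 2.05% of all genes were called higher, namely Cd44 (0.81, adjusted p = 0.0268) and the kinase gene Csnk1a1 (0.50, adjusted p = 0.0318). Both were lost under 8 of the 15 other settings (adjusted p 0.00622 to 0.110 for Cd44 and 0.0303 to 0.202 for Csnk1a1), among them leaving out GFP-positive replicate 2 or 3 or GFP-negative replicate 1. Without GFP-positive replicate 2 the count was 0, and without GFP-negative replicate 2 it was 4. In GFP-negative mutant against control basal cells 0 of 47 passed, with adjusted p of 0.162 or more. In Sca1-negative luminal cells 1 of 47 fell, where 0.682% of all genes were called lower. It was Btrc, an F-box protein of the beta-catenin degradation route (-0.76, adjusted p = 0.0149). The call was lost under 4 of 15 other settings, among them without mutant replicates 1 or 2 or control replicate 3 (adjusted p 0.00242 to 0.0758 over the settings). In Sca1-positive luminal cells 0 of 47 passed, with adjusted p of 0.190 or more.

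**Figure D4:**
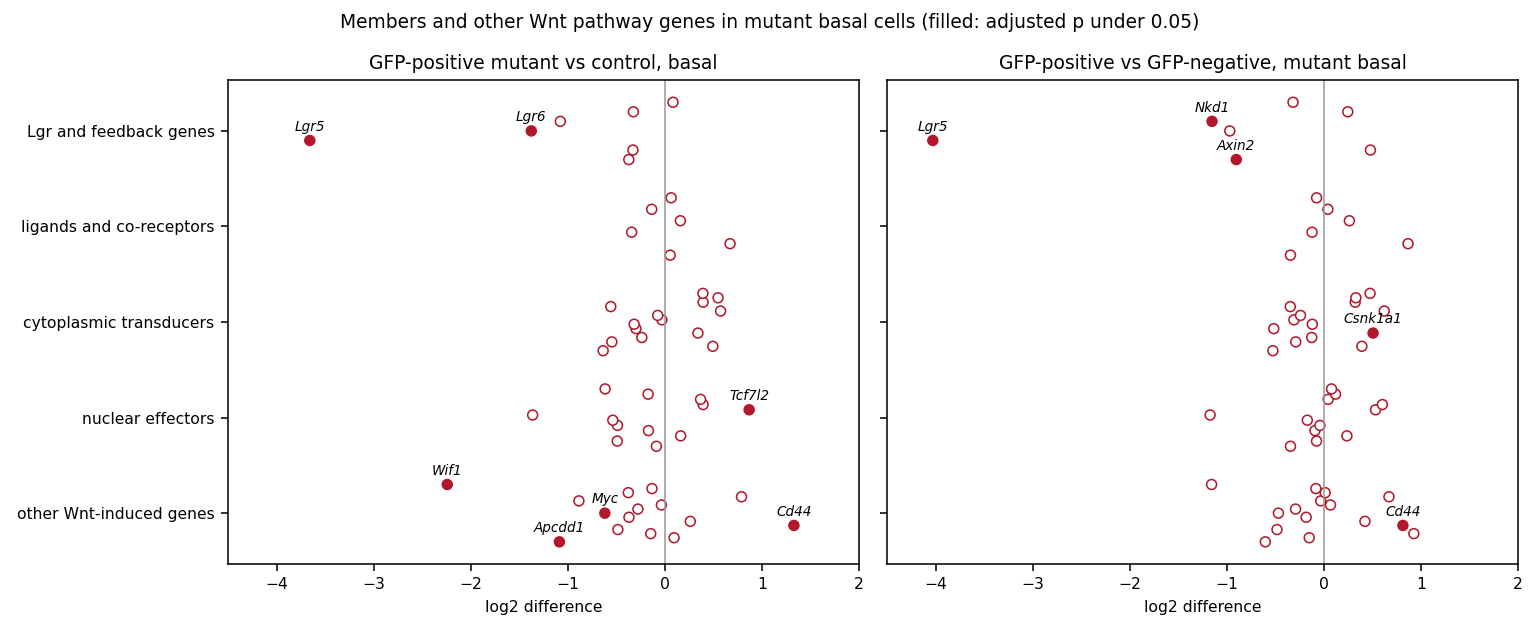
Log2 difference (horizontal axis) of the 7 genes and of 47 other pathway genes by list (vertical axis) in GFP-positive mutant against control basal cells (left) and in GFP-positive against GFP-negative mutant basal cells (right), filled and named where the adjusted p is under 0.05. In the left panel the differences of the 47 run from -2.24 (Wif1) to 1.33 (Cd44), and Lgr5 lies outside that range at -3.66.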

How the data were processed

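Expression of sorted mammary cells was measured on 20 Affymetrix arrays in 7 groups. The authors deposited log2 probe set levels, a unit inferred from their range (1.98 to 13.07). The submitters' processing notes name affy without a version or a role. How the authors normalized or filtered the values was not stated, so they were used as deposited, and differences in spread between arrays remain.

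Of 34760 probe sets, 21640 had 1 symbol in the platform annotation. For the 954 genes with several probe sets, that with the highest mean was kept, which left 19937 genes. A single limma 3.58.1 fit (R 4.3.3) of 7 group means gave 13 contrasts and the F test. Genes with a Benjamini-Hochberg adjusted p under 0.05 over all genes count as called. P-values measure the spread between sorted pools, and gates of 1 genotype may share pools. The number of arrays limits the precision.

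The members and lists were chosen with earlier results of these data known. The text names the 7 members, the called genes of the pathway lists (at most the 4 with the smallest p per list and comparison) and the 5 genes most correlated with each member whose group means span over 1. The scripts were tested on simulated data. Alternatives covered median centring, quantile normalization, a filter on dim genes, the replicate number as a block, array weights and the compared arrays alone. Others were means of probe sets, leaving out arrays, and a random block of genotype and replicate number. The correlation within that block was 0.013, so it lay near the main fit. Means of probe sets and the filter leave the levels of the 7 genes, with 1 probe set each, unchanged. They can alter a call only through the other genes. The bounds that take no value below its array's median were chosen after seeing the data. Tcf7 and Ephb2 were not analysed here. Promoters were taken from RefSeq (GRCm38.p6), with entries for 5 of the 7 members.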

Additional observations from a re-analysis of the deposited data

Results flagged for a closer look

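The mutant difference of Lgr6 was not the same in basal and Sca1-negative luminal cells, and that of Lgr5 passed the same test with luminal levels too low to show a fall. The interaction of genotype with lineage, the basal mutant difference less that of Sca1-negative luminal cells, was -3.74 for Lgr5 (adjusted p = 6.27e-05 by limma) and -2.11 for Lgr6 (adjusted p = 0.00638). Lgr5 was lower in all 3 GFP-positive mutant basal arrays than in any control basal array, while its luminal groups overlapped. On 9 of the 11 luminal arrays Lgr5 lay below the array's own median, so its interactions restate the basal difference. Lgr6 was lower in all 3 GFP-positive mutant basal arrays and higher in all 3 mutant Sca1-negative luminal arrays than in any control array of the same gate. Arrays did not overlap for 18.6% and 22.6% of all genes in these comparisons. The luminal difference of Lgr6 was not called on its own (0.74, adjusted p = 0.236 by limma). In that comparison 5 of 5 hormone-sensing luminal markers fell, and their part in it was not tested. Genotype and the choice of GFP-positive cells cannot be told apart here. Set against Sca1-positive luminal cells the interaction of Lgr5 was -3.68 (adjusted p = 0.000154). That of Lgr6 was -1.68 and did not pass (adjusted p = 0.0520, with 0.00362 to 0.213 over the other settings). The 3 that passed did so under every other setting run, with adjusted p up to 0.00168 for Lgr5 and 0.0237 for Lgr6 against Sca1-negative cells, and 0.00608 for Lgr5 against Sca1-positive cells.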

How the results depend on the processing

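Of the 25 calls of the 7 genes, 16 held under every other setting run, among them those of Lgr5 in GFP-positive mutant basal cells against both other basal groups. With the arrays compared alone, which leaves fewer arrays to estimate the spread, the genes called numbered 276 in place of 843 (GFP-positive mutant against control basal cells, with 1 of the 7 and 3 pathway genes), 134 in place of 648 (GFP-positive against GFP-negative mutant basal cells, with 1 of the 7 and 0 pathway genes), 12 in place of 45 (Sca1-positive luminal cells), 0 in place of 32 (GFP-negative mutant against control basal cells), 43 in place of 152 (control Sca1-positive against Sca1-negative cells) and 124 in place of 218 (interaction of basal with Sca1-positive cells). With array weights they numbered 819 in place of 378 (Sca1-negative luminal cells), 75, 10 and 231 in the Sca1-positive, GFP-negative basal and control luminal comparisons, and 72 in place of 28 for the interaction of the luminal gates. For the interaction of basal with Sca1-positive cells, 2 of the 7 genes in place of 1 were called with median centring, the filter on dim genes or array weights. Of the pathway genes in Sca1-negative luminal cells, 2 in place of 1 were called with those settings or the replicate block. Between the GFP fractions of mutant basal cells, the pathway count of 2 became 4 with the filter or the block, 1 with quantile normalization or weights, and 0 without the 2 arrays of narrow spread, a setting chosen after seeing the data. The causes were not tested.

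Deviations of same-numbered arrays correlated weakly at most (-0.054 to 0.126 over all comparisons). They were 0.078 to 0.126 between the control luminal gates and 0.029 to 0.041 between the GFP fractions of mutant basal cells. Between GFP-positive basal and mutant Sca1-negative luminal cells they were 0.028 to 0.103. There each array matched its own number best, which was not so throughout the other comparisons within a genotype. Whether the numbers mark shared pools was not tested. With the number as a block, Nkd1 between those GFP fractions had an adjusted p of 0.0658, and 2 of the 7 were called there.

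Leaving out 1 array at a time, the genes called ranged from 248 to 271 (Sca1-negative luminal), 19 to 63 (Sca1-positive luminal), 25 to 63 (GFP-negative mutant against control basal), 82 to 120 (control luminal gates) and 1322 to 1996 (GFP-positive basal against mutant Sca1-positive cells). The interactions ranged from 117 to 216 (basal with Sca1-positive) and 20 to 46 (luminal gates). Of the 7 genes, 0 to 1 were called in Sca1-negative luminal cells, 1 to 2 between GFP-positive basal and mutant Sca1-negative cells, and 1 to 2 for the interaction of basal with Sca1-positive cells. Pathway counts ranged from 3 to 6 (GFP-positive mutant against control basal), 0 to 4 (GFP-positive against GFP-negative) and 0 to 1 (Sca1-negative luminal).

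Reversals of sign all concerned small differences that were not called. In Sca1-positive luminal cells Axin2 was 0.0598 with centring and 0.04 with quantile normalization, and Lgr5 was -0.0801 with the block. Znrf3 in Sca1-negative luminal cells was -0.0293 with weights. Leaving out arrays gave -0.36 to 0.47 (Nkd1, GFP-negative mutant against control basal), -0.26 to 0.26 (Znrf3, GFP-positive mutant against control basal), -0.26 to 0.25 (Znrf3, interaction of basal with Sca1-negative) and -0.009 to 0.13 (Axin2, GFP-positive basal against mutant Sca1-negative). In Sca1-negative cells it gave -0.14 to 0.18 (Znrf3) and -0.0776 to 0.29 (Lgr4). In Sca1-positive cells it gave -0.084 to 0.0481 (Axin2), -0.0312 to 0.0672 (Lgr5), -0.0323 to 0.30 (Rnf43) and -0.0868 to 0.70 (Lgr4). Between control luminal gates it gave -0.0507 to 0.16 (Axin2), -0.12 to 0.11 (Rnf43), -0.08 to 0.10 (Nkd1) and -4e-04 to 0.24 (Znrf3). For the interaction of the luminal gates it gave -0.0224 to 0.20 (Nkd1) and -0.17 to 0.62 (Lgr4).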
